A study of Homo sapiens with 6 samples.

Results

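The genes of the transforming growth factor beta (TGF-beta) signaling core were examined in RNA-Sequence data of breast cancer cells with a hairpin against brachyury or a control hairpin. The 10 genes were chosen by symbol from the 54259 gene symbols of the count table, and all 10 were found. They comprise the ligand genes TGFB1, TGFB2 and TGFB3, the receptor genes TGFBR1, TGFBR2 and TGFBR3, and the SMAD genes SMAD2, SMAD3, SMAD4 and SMAD7. The study sequenced total RNA of MDA-MB-231, an established human breast cancer cell line, in 3 libraries of cells with a short hairpin RNA against brachyury (shBry) and 3 libraries of cells with a control hairpin (shNC). The sample labels name this line throughout, whereas the title of the series speaks of lung cancer and its design text calls the RNA pericardial, and the sample labels were followed. All 6 libraries therefore come from hairpin-carrying cells of the same line. The labels give no culture, clone, day or hairpin sequence, so that the p-values below measure the spread between these libraries, which may be technical. The comparison asks which transcripts differ when brachyury, a T-box transcription factor of the early mesoderm, is targeted.

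TGF-beta ligands are secreted in a latent form and, once released, bind the type II receptor TGFBR2, which phosphorylates the type I receptor TGFBR1. TGFBR1 phosphorylates SMAD2 and SMAD3, which bind SMAD4 and move to the nucleus. SMAD7 is an inhibitory SMAD that the pathway itself induces, and TGFBR3, also called betaglycan, is a co-receptor that presents ligand. In breast cancer cells the pathway is known for its part in invasion and metastasis.

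Between 19319411 and 22985371 counts per library were listed, and 15277 genes passed the filter on low counts, among them all 10 TGF-beta genes. Brachyury, listed under its older symbol T, had 0 counts in every library, shNC included. This allows up to 0.131 to 0.155 CPM (3 counts of the library total). The paper, in contrast, describes brachyury as constitutively overexpressed in MDA-MB-231 cells. Brachyury itself thus gives no check of the shBry labels or of a knockdown. VIM, CD44 and AXL mark mesenchymal breast cancer lines. They summed to 4836 to 5074 TMM-normalized CPM (counts relative to the normalized library total) in shBry and 5154 to 5407 CPM in shNC. ESR1, PGR and CDH1 had at most 2 counts in any library. Of the 3 leukocyte markers, PTPRC and TYROBP were at 0, and the sum stayed at or below 0.137 CPM. The sum of 2 endothelial markers was 0.0843 to 0.31 CPM in shBry and 0.615 to 0.916 CPM in shNC. The sums of 4 mesothelial markers (44.9 to 50.6 CPM in shBry, 35.4 to 39 CPM in shNC) and of 3 lung epithelial markers (18.6 to 22.8 CPM in shBry, 36 to 43.1 CPM in shNC, with SFTPC at 0) differed between the groups, and so did that of 4 epithelial and hormone receptor genes (3.66 to 5.01 CPM in shBry, 1.1 to 1.94 CPM in shNC). Their part in the results below was not tested. In bulk libraries, fewer cells with a transcript and less of it per cell cannot be told apart.

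Differences are given as log2 FC, the log2 ratio of shBry to shNC in the edgeR fit, so that positive values are higher in shBry, and the p-values are those of its quasi-likelihood test, adjusted for all 15277 genes by the method of Benjamini and Hochberg. Genes with adjusted p under 0.05 that also differed by more than 1.5-fold (0.58 in log2 FC) were called. Of the 10 TGF-beta genes, 2 were called, TGFBR3 lower and SMAD7 higher in shBry. Of all genes tested, 32.4% were called, with 17.1% higher and 15.2% lower. On adjusted p alone, 6 of the 10 passed, 3 higher and 3 lower, and of all genes 53.3% did, 28% higher and 25.3% lower. In 6 of the 10 the shBry values did not overlap the shNC values, and this was so for 59.5% of all genes. The median log2 FC was -0.03 for the 10 genes and 0.03 for all genes, and the median of its size was 0.39 and 0.42. The shares of the 10 genes were thus near or below those of all genes.

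**Figure D1:**
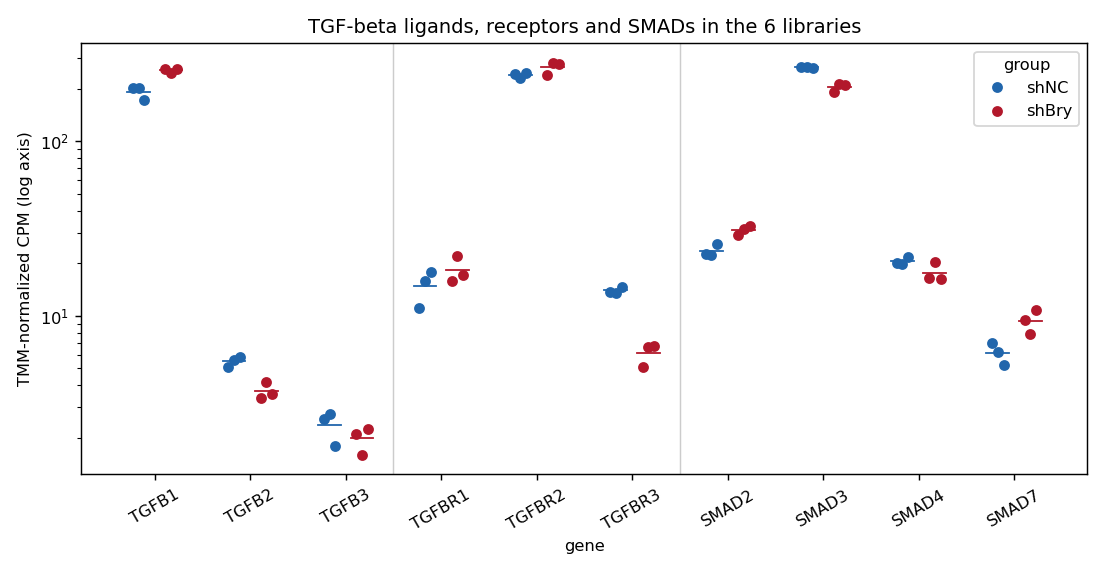
TMM-normalized CPM (log axis) of the 10 TGF-beta genes in the 3 shNC (blue) and 3 shBry (red) libraries; points are libraries and short lines are group means. TGFB1, TGFBR2 and SMAD3 lie at 172 CPM or more in every library and the other 7 genes at 32.5 CPM or less, while TGFBR3 shows the widest gap between the groups.

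Among the ligands, TGFB1 was the main transcript. TGFB1, on the minus strand of chromosome 19 (GRCh38) from 41301587 to 41353911, encodes the most widely expressed of the 3 ligands. It had 259, 247 and 262 TMM-normalized CPM in the shBry libraries 1, 2 and 3, against 203, 202 and 172 CPM in the shNC libraries 1, 2 and 3. Every shBry library was higher than every shNC library. With means of 256 ± 7.71 and 192 ± 17.5 CPM (SD, n = 3), the log2 FC was 0.41 with a standard error (SE) of 0.08 (edgeR adjusted p = 0.000895), which is under the limit for a call. HNRNPUL1, on the opposite strand, covers 6.64% of its exon bases.
TGFB2, on the plus strand of chromosome 1 from 218346235 to 218444619, encodes a ligand that depends on the co-receptor TGFBR3 for efficient binding. It had 3.39, 4.17 and 3.55 CPM in shBry and 5.09, 5.58 and 5.81 CPM in shNC. The shBry libraries were all lower. The log2 FC of -0.56 (SE 0.18, edgeR adjusted p = 0.0165) lay just under the limit. Whether it passed depended on single libraries, with -0.67 without shBry replicate 2 and -0.62 without shNC replicate 1, both past the limit, and adjusted p of 0.0534 without shBry replicate 3 in edgeR. The overlapping transcript TGFB2-OT1, on the same strand, covers 26.6% of the exon bases of TGFB2, so that the counting could have shared or dropped reads there.
TGFB3, on the minus strand of chromosome 14 from 75958099 to 75982991, encodes the third ligand and was the least counted of the 10 genes, with 36 to 58 counts per library. It had 2.1, 1.6 and 2.26 CPM in shBry and 2.57, 2.74 and 1.8 CPM in shNC. The groups overlapped. The log2 FC was -0.26, with a 95% interval from -0.81 to 0.29 (edgeR adjusted p = 0.413), so a change of 1.5-fold lower could not be told from none at this depth.

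Among the receptors, the signaling receptors TGFBR1 and TGFBR2 were not called and the co-receptor TGFBR3 fell. TGFBR3, on the minus strand of chromosome 1 from 91680343 to 91906335, had 5.11, 6.66 and 6.69 CPM in shBry. In shNC it had 13.7, 13.6 and 14.7 CPM. The highest shBry library was below the lowest shNC library by more than the spread within either group. Its mean fell from 14 ± 0.645 to 6.16 ± 0.902 CPM (SD, n = 3), with log2 FC -1.18 (SE 0.15, edgeR adjusted p = 1.52e-05). Leaving out any 1 library gave values between -1.25 and -1.07. No other gene overlaps exons of TGFBR3.
TGFBR2, on the plus strand of chromosome 3 from 30606502 to 30694142, encodes the type II receptor. It had 241, 281 and 278 CPM in shBry and 245, 229 and 245 CPM in shNC. The lowest shBry library lay within the range of shNC. Its log2 FC was 0.15, with a 95% interval from -0.02 to 0.33 (edgeR adjusted p = 0.13), an interval that lies inside the fold change limit. Without shBry replicate 1 it was 0.22 (edgeR adjusted p = 0.0432).
TGFBR1, on the plus strand of chromosome 9 from 99104038 to 99154192, encodes the type I receptor kinase. It had 15.8, 22 and 17.1 CPM in shBry and 11, 15.8 and 17.8 CPM in shNC. The groups overlapped, with shNC replicate 1 the lowest and shBry replicate 2 the highest. The fitted log2 FC of 0.30 had a 95% interval from -0.07 to 0.68 (edgeR adjusted p = 0.164).

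**Figure D2:**
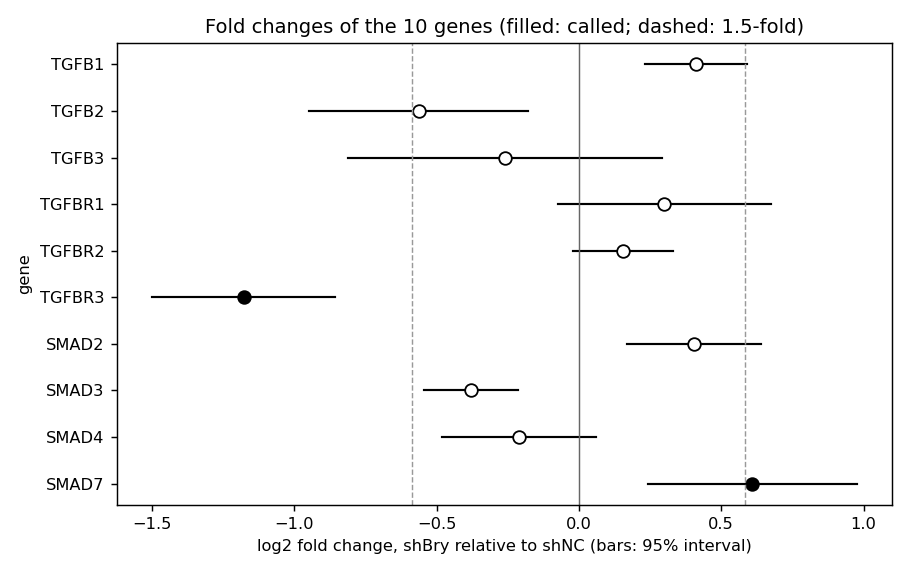
Log2 FC of shBry relative to shNC for the 10 genes, with bars for the 95% interval of the edgeR fit; filled points are called and dashed lines mark the 1.5-fold limit. TGFBR3 at -1.18 is the only gene of the 10 whose interval lies wholly past the limit, and SMAD7 at 0.61 is called with an interval that spans the limit on the higher side.

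Of the SMAD genes, SMAD7 rose and the other 3 were not called. SMAD7, on the minus strand of chromosome 18 from 48919853 to 48952052, had 9.53, 7.88 and 10.8 CPM in shBry and 7.01, 6.19 and 5.26 CPM in shNC. Every shBry library was higher, but shBry replicate 2 and shNC replicate 1 lay close together. Its mean rose from 6.15 ± 0.876 to 9.41 ± 1.47 CPM (SD, n = 3), with log2 FC 0.61 (SE 0.17, edgeR adjusted p = 0.00822). The call rested on single libraries. Without shBry replicate 3 the log2 FC was 0.50 (edgeR adjusted p = 0.0489), and without shNC replicate 3 it was 0.48 (edgeR adjusted p = 0.0451), both under the fold change limit.
SMAD3, on the plus strand of chromosome 15 from 67063763 to 67195195, encodes a receptor-activated SMAD that binds DNA itself. It had 191, 213 and 211 CPM in shBry and 267, 267 and 265 CPM in shNC. The shNC libraries were almost equal, and all shBry libraries were lower. For this gene the log2 FC was -0.38 (SE 0.08, edgeR adjusted p = 0.000829), with a 95% interval from -0.54 to -0.22, inside the fold change limit.
SMAD2, on the minus strand of chromosome 18 from 47808957 to 47931146, encodes the other SMAD activated by TGFBR1. It had 29.2, 31.4 and 32.5 CPM in shBry and 22.5, 22.3 and 25.7 CPM in shNC. All shBry libraries were higher, opposite to SMAD3. Its log2 FC was 0.40 (SE 0.11, edgeR adjusted p = 0.00664), under the limit.
SMAD4, on the plus strand of chromosome 18 from 51028394 to 51085045, encodes the common partner of the activated SMADs. It had 16.5, 20.4 and 16.2 CPM in shBry and 20, 19.7 and 21.8 CPM in shNC. Of the shBry libraries, replicate 2 lay within the range of shNC. The fitted log2 FC of -0.21 had a 95% interval from -0.48 to 0.06 (edgeR adjusted p = 0.178), and without shBry replicate 2 it was -0.34 (edgeR adjusted p = 0.0291). AC091551.1, on the same strand, covers 7.37% of its exon bases.

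**Figure D3:**
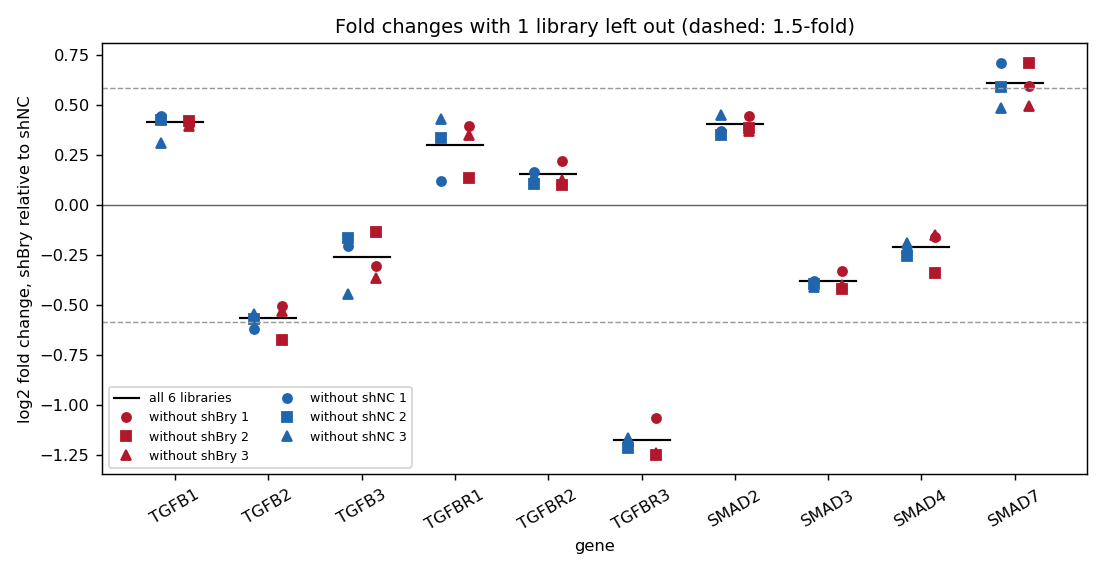
Log2 FC of the 10 genes with 1 library left out in turn (blue, an shNC library; red, an shBry library; symbols give the replicate number) and with all 6 libraries (black line). SMAD7 and TGFB2 cross the dashed 1.5-fold line with the library left out, whereas TGFBR3 stays between -1.25 and -1.07, and no gene changes sign.

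Ratios of counts between genes of the same library do not depend on the scaling of libraries, and 5 such ratios were compared by a two-sided exact permutation test over the 6 libraries. With 3 libraries against 3 the smallest p the test can give is 0.1, so none could pass 0.05, and the ratios were chosen after the values were seen. The log2 ratio of SMAD3 to SMAD2 counts was 2.71, 2.76 and 2.70 in the shBry libraries 1, 2 and 3, against 3.57, 3.59 and 3.36 in the shNC libraries. SMAD3 remained the more counted of both genes everywhere, and the ratio was lower in every shBry library. The mean was 2.72 ± 0.03 in shBry and 3.51 ± 0.12 in shNC (SD, n = 3), a difference of -0.79 (exact permutation p = 0.1, 0.125 adjusted over the 5 ratios).
The log2 ratio of TGFBR3 to TGFBR2 was -5.44 ± 0.10 in shBry and -4.10 ± 0.06 in shNC, a difference of -1.34. The log2 ratio of TGFB1 to TGFB2 was 6.12 ± 0.20 in shBry and 5.13 ± 0.22 in shNC, a difference of 0.99. The log2 ratio of SMAD7 to SMAD3 was -4.45 ± 0.26 in shBry and -5.45 ± 0.20 in shNC, also a difference of 0.99. In these 3 ratios the groups did not overlap either, with the same exact permutation p. The ratio of TGFBR1 to TGFBR2 overlapped, with a difference of 0.16 (exact permutation p = 0.7, adjusted p = 0.7).

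**Figure D4:**
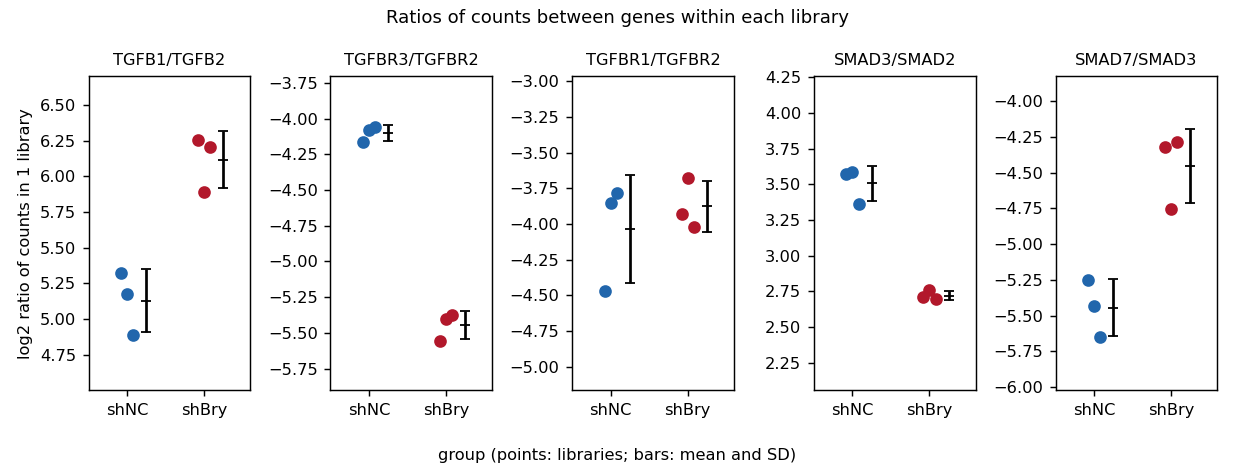
Log2 ratio of counts of paired genes within each library (points), with the mean and SD of each group (black bars); all panels span the same range of the log2 axis. The groups are apart for TGFB1/TGFB2, TGFBR3/TGFBR2, SMAD3/SMAD2 and SMAD7/SMAD3, and overlap for TGFBR1/TGFBR2.

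Levels of different genes were compared per kilobase of exon of the principal transcripts in GENCODE 29. In both groups TGFB1 was the highest, with 92.4 ± 2.79 CPM per kb in shBry and 69.5 ± 6.34 in shNC (SD, n = 3), followed by TGFBR2 with 57.7 ± 4.81 and 51.9 ± 1.96 and SMAD3 with 32.8 ± 1.95 and 42.6 ± 0.245. The ranges of these 3 genes did not overlap each other or those of the other 7. The remaining 7 genes lay between 0.745 and 2.81 CPM per kb in shBry and between 0.673 and 2.3 in shNC. In shNC the order was SMAD4, TGFBR1, TGFBR3, SMAD7, TGFB2, TGFB3 and SMAD2, where SMAD4, TGFBR1 and TGFBR3 overlapped their neighbours and so did TGFB2, TGFB3 and SMAD2. In shBry the order was TGFBR1, SMAD7, SMAD4, TGFBR3, SMAD2, TGFB3 and TGFB2, and the single gap between neighbours was the one between SMAD4 and TGFBR3. TGFBR3 was thus level with TGFBR1 in shNC, at 2.16 and 2.29 CPM per kb, and below it in shBry, at 0.952 and 2.81. The place of SMAD2 depends on its annotated length of 34.9 kb. On its shortest principal transcript of 12.1 kb it would have 2.57 CPM per kb in shBry and 1.94 in shNC. TGFBR3 would have 1.57 and 3.56 CPM per kb on its shortest, of 3.93 kb.

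The pattern of TGFBR3 over the 6 libraries was nearest to that of C1orf112, CNNM2 and HNMT among the genes whose mean reached 1 CPM, measured as the root mean square distance between log2 CPM values centred on each gene's own mean. The distance was 0.036 for C1orf112, 0.0503 for HNMT and 0.0528 for CNNM2. C1orf112 had 7.7, 10.5 and 10.4 CPM in shBry and 19.9, 21 and 22.4 CPM in shNC, with shBry replicate 1 the lowest, as for TGFBR3. As the gene was picked for this nearness, the likeness is not a separate result.

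Upstream sequence is shown for both called genes, TGFBR3 and SMAD7, and for SMAD6, the other inhibitory SMAD gene described below, because SMAD3 and SMAD4 bind DNA at the core CAGAC and at the palindrome GTCTAGAC. The 250 bases before each annotated start were taken from RefSeq on GRCh38.p14, which gave 26 windows for the 10 genes (all 10 matched), and were searched on both strands. Capitals mark a match. SMAD7 has several windows, and the one shown was chosen because it holds a match outside the exons of the gene. The SMAD7 window at chr18:48950966-48951215 held 2 matches to CAGAC, but all its 250 bases lie in exons of the gene. Another SMAD7 window held no CAGAC, and TGFBR3 has a single window. The SMAD6 stretch was cut around its match. The last 8 bases printed for SMAD6 lie in an exon of that gene in GENCODE 29, so that the end of its match does too. The stretches lie at chr18:48949334-48949583 for SMAD7, chr1:91886280-91886401 for TGFBR3 (both minus strand) and chr15:66702206-66702235 for SMAD6 (plus strand), and positions count back from the start at -1. The SMAD7 and TGFBR3 stretches lie inside the gene spans given above, which on the minus strand begin at 48952052 and 91906335. They thus precede RefSeq starts within these genes, not the outermost starts. The TGFBR3 stretch begins at -250 and does not reach the start. The 128 bases after it lie in exons of that gene and are not printed.
SMAD7: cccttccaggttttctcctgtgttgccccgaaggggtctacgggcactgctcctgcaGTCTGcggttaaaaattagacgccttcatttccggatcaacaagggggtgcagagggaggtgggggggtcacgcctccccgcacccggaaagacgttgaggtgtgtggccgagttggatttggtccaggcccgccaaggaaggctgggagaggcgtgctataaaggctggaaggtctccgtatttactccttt
TGFBR3: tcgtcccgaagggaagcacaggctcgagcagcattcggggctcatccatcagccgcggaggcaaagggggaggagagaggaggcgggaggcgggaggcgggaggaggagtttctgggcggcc
SMAD6: ccgcggagccgccaaagtGTCTAGACtggc
This SMAD7 window held CAGAC on the opposite strand (GTCTG as printed), at -193, and the full window of TGFBR3 held none. As the SMAD7 window was chosen for its match, the 2 genes cannot be compared by it. Of the 26 windows, 10 held CAGAC, in 5 of the 10 genes, and of all 34943 promoter windows of the same length 38% did. The palindrome was in no window of the 10 genes and in 0.183% of all windows, among them that of SMAD6 at -12. The T-box element TCACACCT, the kind of site that brachyury binds, was in no window of the 10 genes and in 0.787% of all windows. The searches cover these letters in these windows alone.

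The pathway around the 10 genes was examined with 6 lists written from general knowledge, which hold 92 genes, 82 of them tested. Of the 82 genes, 21 were called higher and 5 lower in shBry, where of all genes 17.1% were higher and 15.2% lower. The list of TGF-beta induced genes held 13 of the 21. SKIL and PMEPA1 stand both in that list and in the list of SMAD partners. The lists were compared with all genes by counts and medians only. They were chosen with earlier results of these data known, so their shares are not independent of the data.

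**Figure D5:**
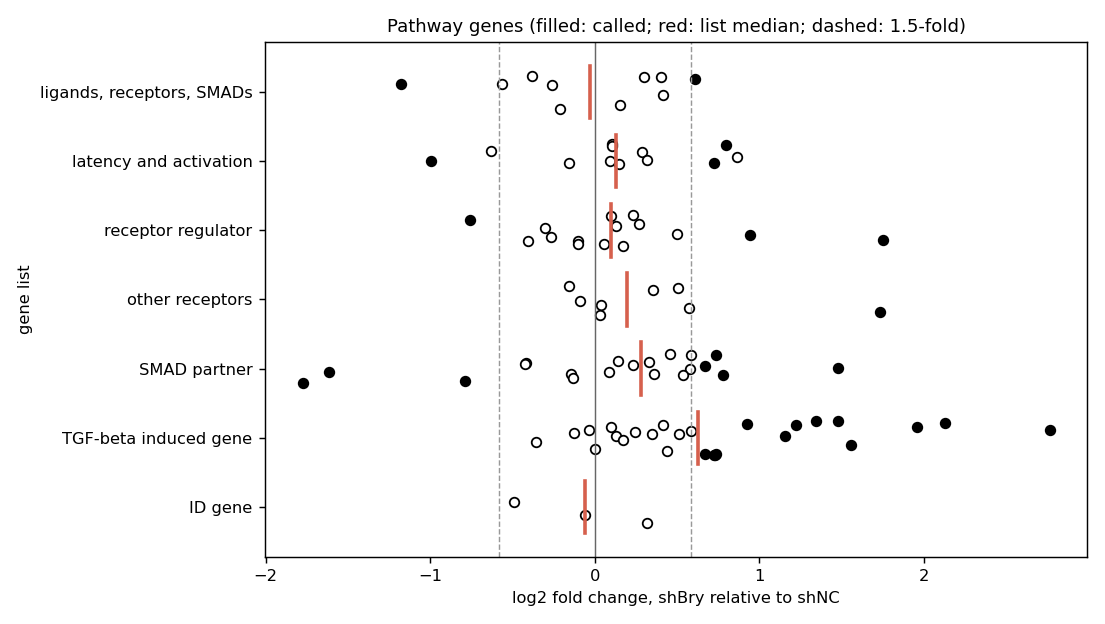
Log2 FC of shBry relative to shNC for each tested gene (points, filled when called) of the 10 TGF-beta genes and 6 lists of other pathway genes, with the list median in red and dashed lines at 1.5-fold. The TGF-beta induced genes have the highest median, 0.63, and no called gene below 0, whereas the 10 core genes have a median of -0.03.

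Of 15 latency and activation genes, 12 were tested and 3 called (25%, below the 32.4% of all genes), 2 higher and 1 lower. Their median log2 FC was 0.13. LTBP1, which tethers latent TGF-beta to the matrix, rose from 18.9 ± 1.47 to 32.8 ± 2.6 CPM, with log2 FC 0.80 (edgeR adjusted p = 4.58e-05). ITGAV and ITGB5 encode subunits of integrins that can release the ligand. ITGAV had a log2 FC of 0.72 (edgeR adjusted p = 0.00106), but 0.48 without shBry replicate 2, under the limit. ITGB5 fell from 197 ± 3.43 to 98.6 ± 3.65 CPM (edgeR adjusted p = 1.02e-07). ITGB1 had the highest mean CPM of those not called, with 0.29. ITGB6 and ITGB8, the partners of ITGAV best known for releasing TGF-beta, had at most 5 counts in any library and were not tested.

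Of 15 receptor regulators, all 15 were tested and 3 were called (20%, below the 32.4% of all genes), 2 higher and 1 lower. Their median was 0.10. BAMBI, a pseudoreceptor without kinase that dampens signaling, rose from 6.54 ± 0.326 to 22.1 ± 3.35 CPM, with log2 FC 1.75 (SE 0.15, edgeR adjusted p = 2.33e-07). SMURF1, a ubiquitin ligase that works with SMAD7 on the receptors, rose by 0.94 on the log2 scale (edgeR adjusted p = 4.81e-07), with TRRAP over 11.7% of its exon bases. ENG, the endoglin co-receptor and a relative of TGFBR3, fell from 227 ± 17.6 to 134 ± 8.46 CPM, with log2 FC -0.76 (edgeR adjusted p = 4.74e-06), and AL162586.1 covers 7.95% of its exon bases. Both co-receptor genes, TGFBR3 and ENG, were thus lower in shBry. FKBP1A, which binds the type I receptor, had the highest mean CPM of those not called, with -0.10. Other genes cover 16.8% of its exon bases, and 21.1% of its stretches of 50 bases also occur in transcripts of other genes.

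Of 10 other receptors of the superfamily, 8 were tested and 1 was called (12.5%, below the 32.4% of all genes), with a median of 0.20. BMPR1B, a type I receptor for bone morphogenetic proteins, rose from 0.804 ± 0.345 to 2.67 ± 0.315 CPM, with log2 FC 1.73 (edgeR adjusted p = 0.000318). ACVR1B, an activin type I receptor gene, had the highest mean CPM of those not called, with 0.35. ACVR2A had 0.57, just under the limit, and passed it without shBry replicate 1 (0.70) or shNC replicate 3 (0.67). With other single libraries left out it went down to 0.45, and the edgeR adjusted p reached 0.0965.

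Of 22 SMAD partners and other SMADs, 20 were tested and 7 called (35%, near the 32.4% of all genes), 4 higher and 3 lower, with a median of 0.28. SKIL, which encodes the SMAD repressor SnoN and is itself induced by the pathway, rose from 7.06 ± 0.634 to 19.7 ± 3.74 CPM, with log2 FC 1.48 (SE 0.16, edgeR adjusted p = 2.76e-06). TGIF1, another SMAD corepressor, had 0.78, and the coactivator gene EP300 had 0.74. Repressor and coactivator genes were therefore both among those called higher.
Lower in shBry were CTDSPL, SMAD6 and SMAD9. CTDSPL, a small phosphatase gene whose relatives act on SMADs, had a log2 FC of -1.78 (edgeR adjusted p = 1.81e-08). SMAD6, the inhibitory SMAD of the bone morphogenetic protein branch, had 2.26, 3.5 and 3.64 CPM in shBry and 10.3, 9.5 and 9.22 CPM in shNC. All its shBry values were below the shNC values, with log2 FC -1.61 (SE 0.19, edgeR adjusted p = 7.36e-06). SMAD6 and SMAD7, the 2 inhibitory SMAD genes, thus differed in direction. SMAD9, a SMAD of the same branch as SMAD6, had -0.79 (edgeR adjusted p = 0.00588), and CTDSP2 had the highest mean CPM of those not called, with -0.42.

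Of 28 genes that TGF-beta induces in many cells, 26 were tested and 13 called (50%), all 13 higher in shBry, with a median log2 FC of 0.63. Of all genes, 17.1% were called higher, with a median of 0.03. As this list was chosen with earlier results of these data known, the contrast with all genes is no independent test. The largest changes were those of IL11, CDKN1A and JUNB. IL11, a cytokine gene that TGF-beta induces in bone-metastatic MDA-MB-231 cells, rose from 5.73 ± 0.368 to 39 ± 1.65 CPM, with log2 FC 2.77 (SE 0.12, edgeR adjusted p = 4e-10). CDKN1A, a cell cycle inhibitor gene that DNA damage and other stresses also induce, had 2.13. JUNB, an immediate-early gene that many growth and stress signals induce, had 1.96, with another gene, HOOK2, over 14.2% of its exon bases.
A few further genes of this list were named after their values were seen. CYR61, a matricellular protein gene, had 0.92 (edgeR adjusted p = 1.5e-07). Its paralog CTGF had 0.10, with a 95% interval from -0.07 to 0.27, and was not called. PMEPA1, a feedback inhibitor, had 0.58, just under the limit, and passed it without shBry replicate 2 (0.62) or shNC replicate 3 (0.61). TGFBI had the highest mean CPM of those not called, with 0.51. SPHK1 had -0.36 (edgeR adjusted p = 0.00892), ACTA2 -0.12 and FN1 -0.04, the 3 tested genes of this list below 0. The other 23 tested genes were above 0, with COL1A1 at 0.004. CDKN2B and NOX4 were at 0 counts in all libraries.

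Of the 4 ID genes, which TGF-beta lowers in epithelial cells and bone morphogenetic proteins raise, 3 were tested and none was called. ID1 had 86.6 ± 4.75 CPM in shBry and 121 ± 14.5 in shNC, with log2 FC -0.49 (edgeR adjusted p = 0.000682), and -0.61 without shNC replicate 3, past the limit. By edgeR, 1 of the 3 (ID1) passed on p alone, adjusted or unadjusted, and DESeq2 and limma-voom called none.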

How the data were processed

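RNA-Sequence data of 3 MDA-MB-231 shBry and 3 shNC libraries were used, grouped by their labels. Per gene symbol and library, the authors deposited integer read counts that were not normalized. The submitters' processing notes name HISAT2 2.0.4, HTSeq and GRCh38. The annotation and the strand setting are not given in the sources used here, so genes that overlap could share counts. The smallest library had 19319411 counts. Limits from 3 counts cover counting error only.

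Low genes were removed by filterByExpr (minimum count 10). The 15277 genes left were TMM-scaled and fitted in edgeR 4.0.16 (R 4.3.3), and its quasi-likelihood F-test between both groups was adjusted after Benjamini and Hochberg. The SE is the size of the log2 FC divided by the square root of F. The fold change limit is that of the paper, and the limit on p was applied to adjusted values, with unadjusted p as an alternative. The test was tried on simulated counts first. Exon lengths and overlaps came from GENCODE 29 (GRCh38), matched by symbol.

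The alternatives comprised DESeq2 1.42.0, limma-voom (limma 3.58.1), plain library sizes, other filters and limits, the replicate number as a block and each library left out. The genes and lists were chosen with earlier results of these data known. Named individually were the 10 genes, up to 3 called genes per direction and list, the gene with the highest mean CPM not called in each list, and the 3 genes nearest to the called gene with the smallest adjusted p. CYR61, CTGF, PMEPA1, ACVR2A, SPHK1, ACTA2, FN1, COL1A1, the genes named as absent or as cell type markers, and the ratios were chosen after their values were seen. No protein sequences were used here. One further named gene is not reported here.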

Additional observations from a re-analysis of the deposited data

How the results depend on the processing

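Over 15 alternatives and 37 named genes, 521 of 555 values gave the same call, 15 lost it, 19 gained it and none changed sign. Alternatives that changed only the p or fold change limit kept the main log2 FC, so its sign could not change there. Part of the 37 genes had been named for large called changes, which favors the same call. SPHK1, ACTA2, FN1 and COL1A1 were not among the 37. For the 10 TGF-beta genes these numbers were 139 of 150, 4 and 7. With a fold change limit of 2, 2297 genes were called over all genes, 1 of the TGF-beta genes (TGFBR3), 0 of latency and activation, 1 receptor regulator, 3 SMAD partners and 8 induced genes. Without a fold change limit, 8139 genes, 6 TGF-beta genes, 8 receptor regulators, 4 other receptors, 14 SMAD partners and 1 ID gene passed. Leaving out 1 library at a time, from 1 to 3 TGF-beta genes, 1 to 2 other receptors and 0 to 1 ID genes were called. The same call can hide a crossing of the p limit alone, as given for TGFBR2, SMAD4, TGFB2 and ACVR2A above. ITGB1 and ACVR1B crossed it too, with edgeR adjusted p up to 0.0966 and 0.0822 when 1 library was left out. SMAD7 was lost without shBry replicate 3 or shNC replicate 3, and TGFB2 was gained without shBry replicate 2 or shNC replicate 1. Without an expression filter SMAD7 had 0.58 and TGFB2 -0.59, each just across the limit. The median log2 FC of all genes lay between -0.02 and 0.04 in all settings.
The replicate numbers were not used to pair the libraries in the main test, because the labels do not say what they mark. Whether they mark pairs is not known. The deviations of libraries with the same number correlated at 0.169, -0.074 and -0.022. The highest correlation between the groups, 0.207, was that of shBry replicate 2 with shNC replicate 3. Only shBry replicate 1 correlated best with its own number. With the replicate block, 4914 genes and 2 TGF-beta genes were called. Among the 10 genes, the widest intervals were those of TGFB3 and TGFB2, with as few as 36 and 63 counts per library.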

Other observations

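Single genes of the marker sums above did not all move alike. VIM had log2 FC -0.27 (edgeR adjusted p = 0.00853), whereas CD44 had 0.34 and AXL 0.33, all under the limit for a call. NKX2-1, a transcription factor gene of lung and thyroid, had 14.9, 18.8 and 18.4 CPM in shBry replicates 1, 2 and 3 and 37.1, 38.4 and 32.3 CPM in shNC replicates 1, 2 and 3, with log2 FC -1.05 (edgeR adjusted p = 7.52e-06), while NAPSA, an aspartic protease gene of the lung, had means of 3.72 CPM in shBry and 3.91 CPM in shNC (edgeR adjusted p = 0.788). EPCAM, an epithelial surface gene, had 3.66, 4.17 and 5.01 CPM in shBry and 0.962, 1.89 and 1.8 CPM in shNC, with log2 FC 1.47 (edgeR adjusted p = 0.000337). MSLN, the gene with most of the mesothelial sum, had means of 45.9 ± 2.89 CPM in shBry and 32.1 ± 3.84 CPM in shNC (SD, n = 3), with log2 FC 0.52 (edgeR adjusted p = 0.00116), under the limit for a call. CALB2, another mesothelial gene, had 1.37 CPM in each of shNC replicates 1 and 2 but 11.1 CPM in shNC replicate 3, and at most 1.13 CPM in shBry. Their part in the results of the TGF-beta genes was not tested.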
